A study of Mus musculus with 4 samples.

Results

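Zeb1 peaks just downstream of the transcription start site (TSS) were taken from the list of Zeb1 peaks in naive mESC by where their centres lie relative to the TSS of the gene the list assigns. Peaks with a deposited distance from 0 to 500 bp, where positive values lie downstream of the TSS, numbered 6019 of 17435 (34.5%, 95% Wilson interval 33.8 to 35.2%). They are called downstream peaks here, and their choice from the list used position alone. The list itself holds only regions that the authors had called as peaks by treatment reads and enrichment over input. Over the whole list the lowest values were 20 treatment reads and an enrichment of 2. The downstream peaks were set beside 1954 upstream peaks, centred 1 to 500 bp before the TSS, 2725 flanking peaks, centred farther away but within 5 kb, and 6737 distal peaks.

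The ChIP-seq was made in the ES cell line D3, adapted to growth without feeder cells and used at passages p5-p8. All libraries came from cells in GS medium, which holds 1 μM PD0325901, an inhibitor of MEK, 3 μM CHIR99021, an inhibitor of GSK-3, and 20 ng/mL LIF. After fixation in 1% formaldehyde, fragments of chromatin were near 200 bp long, and the ChIP used 8 μg of the anti-Zeb1 antibody H-102. There were 3 libraries of Zeb1 ChIP beside 1 of input, all of the same line and medium, so that the list allows comparisons among regions and none among conditions. For each peak the list has 1 value of treatment reads, 1 of input reads and 1 of enrichment over input, each averaged over libraries by the authors. No value per library was at hand, so no spread between libraries accompanies any value and no test was made. The intervals given are 95% intervals over the peaks or genes of this list, cover counting error and the spread among peaks, and do not cover the error between libraries. The authors drew the same number of reads at random from each library before alignment, and the number left after alignment is not given in the sources used here.

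Zeb1 is a zinc finger transcription factor that binds E-boxes, above all those with the core CACCTG, and represses genes of epithelial cells by recruiting CtBP corepressors and histone deacetylases. The sequence right after a TSS usually holds the first exon and the start of the first intron, with the first 5′ splice site between them. In mammals many promoters lie in CpG islands, stretches rich in CG dinucleotides that extend to both sides of the TSS.

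The motif of Zeb1 searched here has the letters CNCACCTG, CNTACCTG, TNCACCTG or TNTACCTG, on either strand. The match nearest to the TSS is given for the downstream peaks of Mesp2, Dll1, Hdac1 and Hdac2, which are among the genes the study names, and for those of the 5 downstream peaks with the highest enrichment. Each window has 30 bases of mm10, is written 5′ to 3′ on the strand of the gene, and has the match in capitals, so that a match on the opposite strand reads as its reverse complement, CAGGT followed by more bases. No match lay in the peaks of Alkbh7 and Syap1, which are among these 5.
Mesp2, chr7:79811517-79811546, plus strand: ggacctctgatCTCACCTGaaaaccttggg
Dll1, chr17:15375352-15375381, minus strand: ggccctgatagCACACCTGgagccgagaga
Hdac1, chr4:129543331-129543360, minus strand: agctcttcagcTTTACCTGtaaaattgttt
Hdac2, chr10:36973913-36973942, plus strand: tttattacgagCAGGTATGgatgctgggaa
Pgrmc1, chrX:36597949-36597978, plus strand: cagaggcccagCAGGTAGAacagagaggtg
Atp2b3, chrX:73503417-73503446, plus strand: tggcgcggcggCAGGTAGGgggtacgcagg
Iqsec2, chrX:152144070-152144099, plus strand: ggtggcgactgCAGGTGGGgcgcgcggggg
The Mesp2 match lay 804 bp downstream of the TSS in the coding part of exon 1, the Dll1 match 456 bp downstream in the 5′ UTR in exon 1, and the Atp2b3 match 346 bp downstream in intron 1. The other 4 lay upstream of the TSS, outside the transcript.

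In many downstream peaks the letters of the motif fall exactly on the 5′ splice site of the first intron, where the exon commonly ends in CAG and the intron begins with GT. The windows that follow, chosen after their positions were seen, show this in 6 named genes, again on the strand of the gene. The capitals mark the match on the opposite strand, of which the first 3 letters, CAG, are the end of exon 1 and the rest the start of intron 1.
Uhrf1, chr17:56304380-56304409, plus strand: tgggtggggttCAGGTGAGtttgtggccac
Pcgf2, chr11:97699520-97699549, minus strand: gaccccgaagcCAGGTAAGcggacgccgac
Eif3d, chr15:77970667-77970696, minus strand: gaaggcttttgCAGGTGAGcggcttgtttc
Stat3, chr11:100939240-100939269, minus strand: agccccggagaCAGGTGAAgggggtgcagg
Dnmt3b, chr2:153649727-153649756, plus strand: cagcctcacgaCAGGTGAGcgccacgcgcc
Ovol2, chr2:144331745-144331774, minus strand: cacttacatccCAGGTGAGgagcgcggggg
These matches were centred between 82 bp (Uhrf1) and 320 bp (Ovol2) downstream of the TSS. Exon 1 ended in the 5′ UTR in 5 of the genes and in coding sequence in Ovol2.

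The centres of a few named downstream peaks are shown for their CG dinucleotides, in capitals, as 30 bases around the peak centre that touch no annotated UTR. They were picked after their values were seen, to show a CpG-rich and a CpG-poor example of coding and of intron sequence.
Mesp2, chr7:79811135-79811164, plus strand: cCGaCGaaCGCGcccagCGccCGcaggCGg
Polr2c, chr8:94857635-94857664, plus strand: acctggCGtaaggCGgCGaggggagaggCG
Krtap1-3, chr11:99590910-99590939, minus strand: aacctgctgccagctgcaccatgcccaggc
Lin28a, chr4:134018385-134018414, minus strand: cttggggaggcagccaggacaggtttcttc
The Mesp2 and Krtap1-3 windows lie in the coding part of exon 1, and the Polr2c and Lin28a windows are centred in intron 1. Over 500 bp at the centre, the observed number of CG over that expected from the C and G content was 0.966 for Mesp2, 0.898 for Polr2c, 0.166 for Krtap1-3 and 0.529 for Lin28a.

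Among the 7973 peaks centred within 500 bp of a TSS, 75.5% (95% Wilson interval 74.5 to 76.4%) lay downstream, which is 3.08 downstream peaks for each upstream peak. The number of peaks per 100 bp rose from 83 between 500 and 401 bp before the TSS to 934 in the last 100 bp before it, and reached its highest values of 1595 and 1682 in the first and second 100 bp after it. It then fell to 1356, 860 and 523 in the next 3 steps and to 342 between 500 and 599 bp. The median distance of the downstream peaks was 182 bp, with quartiles of 94 and 290 bp. The named transcript was found in the reference for 5965 of them, and the distance recomputed from it was within 2 bp of the deposited one for 83.0% and within 100 bp for 96.3%. By the nearest TSS of the reference, 97.0% of the downstream peaks again lay 0 to 500 bp downstream.

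The distance depended on the strand of the gene. For genes on the plus strand, 2803 of 4034 peaks within 500 bp lay downstream, or 69.5% (68.0 to 70.9%), and for genes on the minus strand 3162 of 3860, or 81.9% (80.7 to 83.1%). The median distance of these peaks was 79.5 bp (72 to 86 bp) on the plus strand and 174 bp (167 to 181 bp) on the minus strand. On both strands more peaks lay downstream than upstream, by 2.28 and 4.53 to 1. The medians differed as they would if every centre were moved by 47.2 bp to lower coordinates, and with distances moved back by that amount, a setting chosen after seeing the data, 76.3% lay downstream. The length of every peak was a multiple of 50 bp. The cause of the difference between strands was not tested. Across Chr. 1 to 19 and X, the share downstream within 500 bp ranged from 73.0 to 81.3%.

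**Figure D1:**
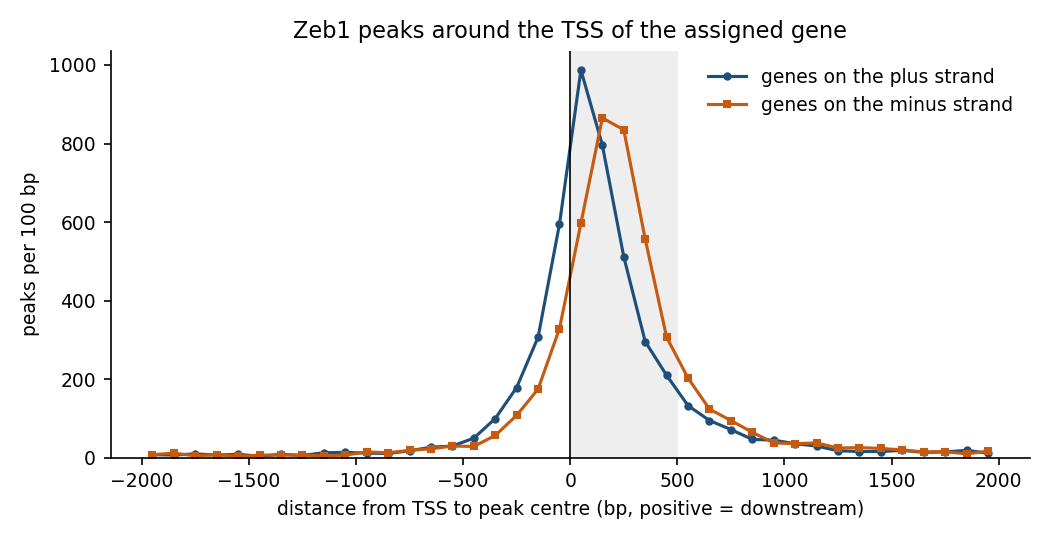
Number of Zeb1 peaks per 100 bp (y axis) by the deposited distance from the TSS to the peak centre in bp (x axis), for genes on the plus strand (circles) and on the minus strand (squares), with the interval of the downstream peaks shaded. Both lines have their highest point downstream, with 987 peaks from 0 to 99 bp on the plus strand and 865 from 100 to 199 bp on the minus strand.

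Genes that share a promoter region with a gene of the opposite strand were less one-sided. An annotated TSS of the opposite strand lay within 1 kb of the assigned TSS for 805 downstream peaks, or 13.5% of those with a transcript in the reference. Among all peaks within 500 bp, 67.6% (64.9 to 70.2%) lay downstream with such a TSS and 77.0% (76.0 to 78.0%) without. Downstream peaks next to an opposite TSS had a median length of 1900 bp and 29.2 treatment reads per kb, and the others 1800 bp and 27.6 treatment reads per kb.

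Although their centres lay downstream, the peaks themselves spanned the TSS. Of the 5965 downstream peaks with a transcript in the reference, 5948, or 99.7%, covered the TSS, reaching from a median position of -703 bp to one of 1104 bp. Upstream peaks reached from -1104 bp to 886 bp. The first exon of the transcripts of downstream peaks had a median length of 246 bp, with quartiles of 150 and 396 bp, so that most downstream peaks held all of exon 1 and the start of intron 1.

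**Figure D2:**
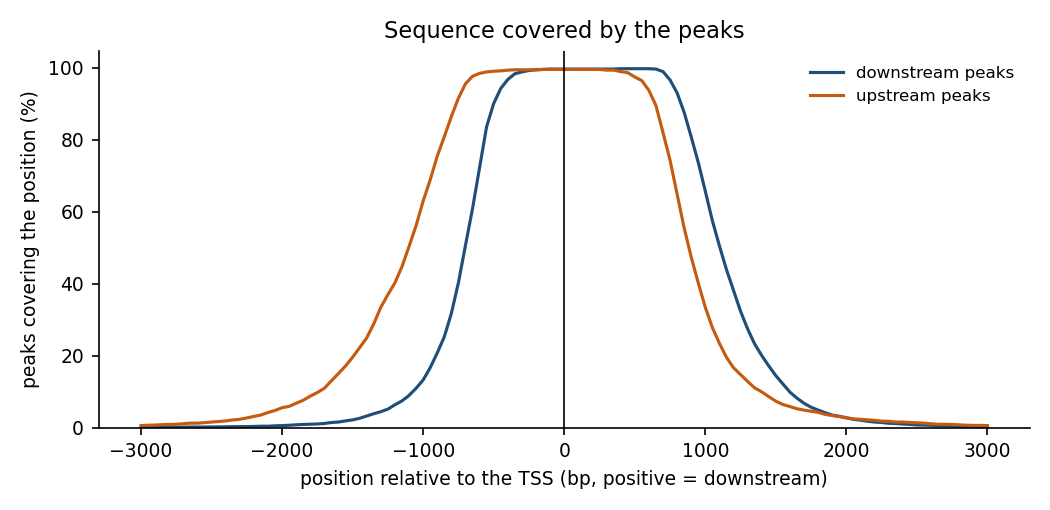
Percentage of peaks that cover each position (y axis) against the position relative to the TSS in bp (x axis), for downstream peaks and upstream peaks with a transcript in the reference. Both sets cover the TSS, and the downstream peaks reach a median of 1104 bp past it.

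By the transcript named in the list, the centre lay in the 5′ UTR in 2429 downstream peaks (40.4%), in an intron in 1916 (31.8%), in coding sequence in 1442 (24.0%) and in an exon of a non-coding transcript in 124 (2.06%). The centre lay outside the transcript of the reference in 54 peaks, and the transcript was not matched in a further 54. Of the 3995 centres in an exon, 98.2% were in exon 1, and of the 1916 in an intron, 98.6% were in intron 1. The classes followed the distance from the TSS, with median distances of 99 bp in the 5′ UTR, 207 bp in coding sequence and 266 bp in introns. Enrichment hardly differed among them, with medians of 6.67, 6.61 and 6.69.

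Downstream peaks belonged to 5975 genes, of which 44 had 2 downstream peaks and none more. A protein-coding gene was assigned to 5863 peaks (97.4%), a non-coding RNA gene to 132, a pseudogene to 21 and a snoRNA gene to 3. An upstream peak was also assigned to 32 of the genes and a distal peak to 1207. Counting every protein-coding gene with a TSS inside a downstream peak, whether or not the list assigns it the peak, gave 6300 of 21000 genes (30%), and 501 of these were assigned no downstream peak.

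Treatment reads per peak rise with its length, so levels are compared per kb. The median downstream peak had 27.8 treatment reads per kb (27.6 to 28.0), against 27.0 in upstream, 23.8 in flanking and 22.4 in distal peaks. The difference from upstream peaks was 0.75 reads per kb (0.275 to 1.22), from flanking peaks 3.94 (3.53 to 4.36) and from distal peaks 5.36 (5.06 to 5.66). Input reads per kb were higher as well, with medians of 8.86 in downstream, 8.35 in upstream, 7.17 in flanking and 7.55 in distal peaks. Per peak the order was another, as upstream and flanking peaks were longer than downstream peaks and distal peaks shorter. The median length was 1800 bp in downstream, 2000 bp in upstream, 2500 bp in flanking and 1650 bp in distal peaks. Treatment reads per peak had medians of 58.6 in flanking and 38.2 in distal peaks. The downstream median of 50.6 treatment reads per peak was 3.43 below that of upstream peaks (difference -3.43, -4.73 to -2.13).

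Median enrichment over input was much alike on both sides of the TSS. It was 6.66 (6.59 to 6.74) in downstream and 6.73 (6.60 to 6.89) in upstream peaks, a difference of -0.0686 whose interval, -0.231 to 0.0938, includes 0. It was 6.93 in flanking and 6 in distal peaks, and 6.50 over the whole list. The middle of the downstream peaks was narrow, with quartiles of 5.31 and 8.37, and 5% lay below 3.90 and 5% above 11.8. An enrichment of at least 10 was reached by 718 downstream peaks, or 11.9% (11.1 to 12.8%), against 14.7% of the whole list. Peaks with at least 100 treatment reads numbered 272, or 4.52% (4.02 to 5.07%), against 6.91% of the whole list. Both shares in downstream peaks were thus below those over all peaks. In upstream peaks they were 260 of 1954 (11.9 to 14.9%) and 7.37% (6.29 to 8.61%), and flanking and distal peaks reached 16.8% each for the first, and flanking peaks 17.8% and distal peaks 4.50% for the second.

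Within the downstream peaks, length and enrichment rose with distance from the TSS while reads per kb hardly moved. From 0 to 49 bp, 750 peaks had a median length of 1700 bp, 27.8 treatment reads per kb and an enrichment of 6.35. From 250 to 299 bp, 591 peaks had medians of 1850 bp, 27.8 reads per kb and 6.78. Just inside the limit, from 450 to 500 bp, 242 peaks had medians of 2250 bp, 27.3 reads per kb and 7.19, and just outside it, from 501 to 550 bp, 199 peaks had 2350 bp, 26.6 reads per kb and 7.36. At the other limit, the 532 peaks from 50 to 1 bp before the TSS had medians of 1800 bp, 27.7 reads per kb and 6.69. At the limit of 500 bp length and enrichment went on rising with distance and reads per kb fell slightly. At the TSS they did not, as enrichment and length were lower from 0 to 49 bp than just before it. Across the 6019 downstream peaks Spearman's rho was 0.0941 between enrichment and distance, 0.237 between enrichment and length, 0.656 between treatment reads and length, and -0.464 between enrichment and input reads, which enter the enrichment themselves. Peaks are not replicates, and all share the same libraries, so the rho values describe the list.

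At their centres, downstream peaks were the richest in G, C and CG among the sets compared. In 500 bp at the centre, the median GC content was 68.2% (68.0 to 68.6%) in downstream, 65.5% in upstream, 60.8% in flanking and 57.6% in distal peaks. The observed over expected number of CG there was 0.841, 0.810, 0.578 and 0.422 in the same order. The difference between downstream and upstream peaks was 0.0316 (0.0213 to 0.0419) at the centre and 0.0204 (0.0106 to 0.0302) over the whole peak. Median GC content over the whole peak was 56.8% in downstream, 56.4% in upstream, 57.1% in flanking and 52.7% in distal peaks, so that flanking peaks were the highest there. Within the downstream peaks CpG content fell with distance, from a median of 0.865 at 0 to 49 bp to 0.745 at 450 to 500 bp. It had little relation to enrichment, with a Spearman's rho of -0.0412 across the 6019 peaks. From the lowest to the highest quartile bin of CpG content, median enrichment was 6.70, 6.73, 6.67 and 6.50, and treatment reads per kb were 26.7, 28.9, 28.7 and 27.2.

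At the level of genes, the presence of a downstream peak followed the CpG content after the TSS. A protein-coding gene was called CpG-rich where the 500 bp after its TSS had a GC content above 50% and an observed over expected number of CG above 0.6, and 10576 of 21000 genes were. Of these CpG-rich genes 5111 had a downstream peak, or 48.3% (47.4 to 49.3%), and of the other 10424 genes 699 had one, or 6.71% (6.24 to 7.20%). Seen from the peaks, 88.0% of the 5810 genes with a downstream peak were CpG-rich, against 78.6% of genes with an upstream peak as their nearest, 63.1% of genes with a flanking peak alone and 25% of genes with no peak within 5 kb. Genes with a downstream peak had more CG after the TSS than before it, with medians of 0.825 in the 500 bp after it and 0.658 in the 500 bp before it. The same held over all genes, at 0.621 and 0.477, and in genes with a flanking peak alone, at 0.715 and 0.521. In genes with an upstream peak as their nearest the values were closer, at 0.777 and 0.722.

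The Zeb1 motif was present in 4408 downstream peaks, or 73.2% (72.1 to 74.3%), against 76.8% of all peaks, 76.7% of upstream peaks and 84.9% of flanking peaks. Downstream peaks also had the fewest matches for their length, 0.744 per kb, against 0.775 in upstream, 0.920 in flanking and 1.03 in distal peaks. In the 200 bp at the centre the comparison with upstream peaks turned. There 948 downstream peaks had a match, or 15.8% (14.9 to 16.7%), against 10.1% (8.87 to 11.6%) of upstream peaks, a difference of 5.62 percentage points (3.94 to 7.19). Flanking peaks, with 15.6% (14.3 to 17.0%), were level with downstream peaks, and distal peaks were the highest, with 19.7% (18.8 to 20.7%). Among protein-coding genes, the 500 bp after the TSS held the motif in 34.1% of those with a downstream peak. The share was 36.0% in all genes and 37.1% in genes with no peak within 5 kb.

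Without matches at 5′ splice sites, the central share of downstream peaks was level with that of upstream peaks. Of the 8672 matches in downstream peaks, 1594, or 18.4%, lay exactly at an annotated 5′ splice site with the CAG at the end of the exon, and 1366 of them at that of a first intron. Such a match was present in 1481 downstream peaks, or 24.6% (23.5 to 25.7%), against 26.6% of upstream peaks and 29.5% of the longer flanking peaks. As a share of all matches these were 18.4% in downstream, 17.9% in upstream, 15.6% in flanking and 7.82% in distal peaks. Downstream and upstream peaks differed in its position, since 7.76% of downstream and 1.28% of upstream peaks had one in the central 200 bp. This follows from choosing the sets by side of the TSS, as 91.2% of upstream centres lay outside the named transcript. Leaving out matches at 5′ splice sites could therefore lower little but the downstream share, and decides nothing about the binding of Zeb1. Without these matches, a setting chosen after seeing the data, the share of peaks with a match in the central 200 bp was 8.64% (7.96 to 9.38%) downstream and 8.90% (7.72 to 10.2%) upstream, a difference of -0.266 percentage points (-1.77 to 1.13). In flanking peaks the central share without them was 13.2% (12 to 14.5%) and in distal peaks 18.5%, both above that in downstream peaks. Over the whole peak the shares without 5′ splice sites were 64.8% downstream, 70.1% upstream, 80.3% in flanking and 75.2% in distal peaks.

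Matches in downstream peaks were also counted by position and strand. The first 5′ splice site of a transcript lies after its TSS by definition. Between 0 and 500 bp after the TSS, downstream peaks held 2516 matches, of which 849 were on the strand of the gene and 1667 on the opposite strand. Of the latter, 1024 lay at a 5′ splice site and 643 did not. In the 500 bp before the TSS, matches on the strand of the gene numbered 864 and on the opposite strand 973, of which 30 lay at a 5′ splice site. Matches at 5′ splice sites were most frequent from 100 to 199 bp after the TSS, with 0.550 per kb of covered sequence, or 327 of the 586 matches there. Other matches were least frequent around the TSS. On the strand of the gene they fell from 0.325 per kb at 200 to 101 bp before the TSS to 0.138 per kb at 0 to 99 bp after it and were back at 0.340 per kb from 200 to 299 bp. On the opposite strand, apart from splice sites, they were lowest from 100 to 199 bp, with 0.166 per kb.

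**Figure D3:**
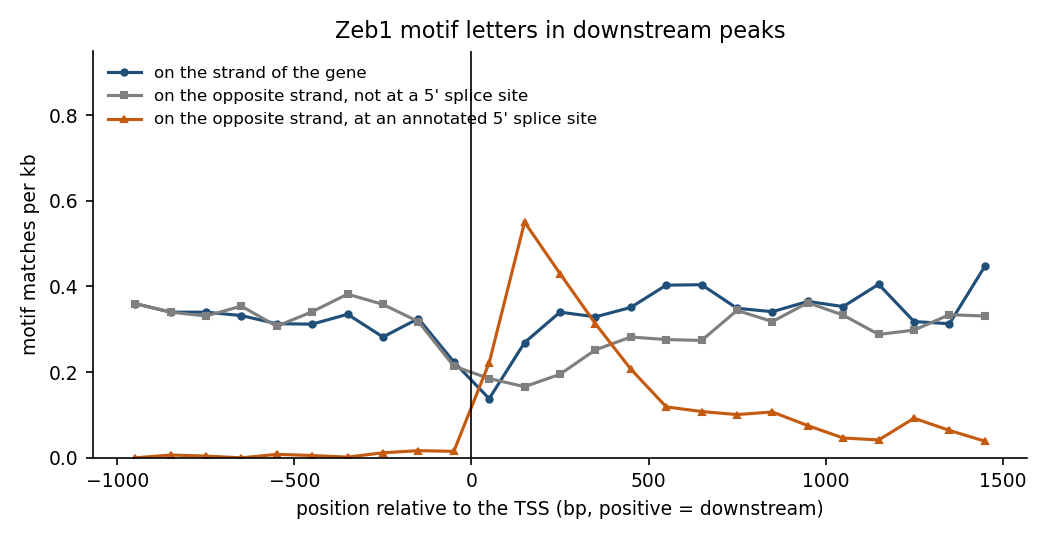
Matches of the Zeb1 motif per kb of sequence covered by downstream peaks (y axis) against position relative to the TSS in steps of 100 bp (x axis), for matches on the strand of the gene (circles), on the opposite strand away from 5′ splice sites (squares) and on the opposite strand at an annotated 5′ splice site (triangles). The triangles reach 0.550 per kb from 100 to 199 bp, where the other lines are at 0.269 and 0.166 per kb.

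The letters at 5′ splice sites were about as frequent in downstream peaks as elsewhere. Among all 28330 first introns of the reference, 17.3% (16.8 to 17.7%) had the letters of the motif at the 5′ splice site, and among the 7670 whose 5′ splice site lay inside a downstream peak 17.8% (17.0 to 18.7%) did. Over all 203985 introns the share was 16.5%. A match is a description of the sequence, and whether Zeb1 was bound at any of these letters was not measured.

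Promoter sequences from 250 bases before to 50 bases after the TSS, from RefSeq on GRCm38, were at hand for 4650 of the 5810 protein-coding genes with a downstream peak. The Zeb1 motif was present in 14.8% (13.9 to 15.7%) of the 5860 promoters of these genes and in 15.7% of all 20488 promoters, and the core CACCTG, which overlaps it, in 19.6% of both. The GC box GGGCGG, searched on both strands, was present in 68.7% (67.5 to 69.9%) against 47.6% of all promoters. CCGGAAG, a motif of ETS factors, was present on either strand in 17.0% against 11.9%. The TATA box TATAAA, on the strand of the gene, was present in 3.98% (3.51 to 4.51%) against 8.19%, and CCAAT, on either strand, in 35.2% against 38.4%. Genes with an upstream peak gave nearly the same shares, with 68.1% for the GC box and 3.43% for the TATA box.

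A downstream peak was assigned to 5810 of 21000 protein-coding genes, or 27.7% (background share). Of 23 gene lists defined by symbol, 14 had a higher share than this. Of 9 housekeeping lists 8 had higher shares, with intervals that include the background in 3 of these. The other list, subunits of RNA polymerase II, had a downstream peak in 3 of 13 genes (23.1%, 8.18 to 50.3%). Translation initiation factors had a downstream peak in 29 of 56 genes (51.8%, 39.0 to 64.3%), proteins of the spliceosome and SR proteins, which act in splicing, in 23 of 45 (51.1%, 37.0 to 65.0%), subunits of the proteasome in 17 of 39 (43.6%, 29.3 to 59.0%), nuclear genes of the respiratory chain in 37 of 85 (43.5%, 33.5 to 54.1%) and tRNA synthetases in 14 of 33 (42.4%, 27.2 to 59.2%). With an enrichment of at least 5, the background fell to 22.2% and the tRNA synthetases to 9 of 33 (27.3%, 15.1 to 44.2%). Replication factors fell to 8 of 31 and proteasome subunits to 12 of 39 (30.8%, 18.6 to 46.4%). The interval of the proteasome then included the background. It did so too with a limit of 1000 bp, at 31.6 to 61.4% against 31.8%. With distances moved by 47.2 bp it was 27.1 to 56.6%, which includes the 27.7% of the deposited distances. Cytosolic ribosomal proteins had one in 41 of 101 genes (40.6%, 31.5 to 50.3%), DNA replication factors in 12 of 31 (38.7%, 23.7 to 56.2%) and mitochondrial ribosomal proteins in 27 of 78 (34.6%, 25 to 45.7%). These lists were mostly CpG-rich. Counting their CpG-rich genes alone, a downstream peak was present in 29 of 48 initiation factors, 23 of 42 splicing proteins, 15 of 27 proteasome subunits, 35 of 66 respiratory chain genes and 14 of 27 tRNA synthetases. It was present in 38 of 88 cytosolic ribosomal proteins, 11 of 25 replication factors and 27 of 67 mitochondrial ribosomal proteins, against 48.3% of all CpG-rich genes.

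The median enrichment over all downstream peaks was 6.66. In these lists it was 7.66 in initiation factors, 7.51 in splicing proteins and 7.26 in the respiratory chain. It was 6.40 in mitochondrial and 6.14 in cytosolic ribosomal proteins, 5.90 in tRNA synthetases, 5.45 in replication factors and 5.38 in the proteasome. Among these genes, Rps16, a protein of the small ribosomal subunit, had the highest enrichment of its list at 16.6, 86 bp from the TSS, with 40.6 treatment reads per kb. Eif4a3, an RNA helicase of the exon junction complex, had an enrichment of 15.3 and Eif4g3, a scaffold of cap-dependent initiation, 12.8. The splicing factor Srsf2 had 18.1, with 51.8 treatment reads per kb, more than in 99.1% of downstream peaks. Mrps35 and Mrpl39, of the mitochondrial ribosome, had 13.6 and 12.3. In Ndufb6, a subunit of complex I, it was 11.7, and in Uqcrc2, a subunit of complex III, 11.5. The highest values were lower in the proteasome, with 9.86 in Psmb1, in the tRNA synthetases, with 9.94 in Yars2, and among replication factors, with 8.74 in Rfc2.

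Corepressor genes had the largest share of the 23 lists. Of 21 genes of the corepressors and deacetylases that Zeb1 and related repressors work with, 15 had a downstream peak (71.4%, 50 to 86.2%), all 15 among the 18 CpG-rich ones. Mta2, a subunit of the NuRD deacetylase complex, had an enrichment of 15.5 at 230 bp. Rbbp7, a histone chaperone on Chr. X, had 13.2, and Chd4, the ATPase of NuRD, 9.93. Hdac1 and Hdac2, the deacetylases examined in the study, had peaks at 21 and 56 bp with enrichments of 5.45 and 5.58, which were above those of only 27.1% and 29.4% of downstream peaks. Polycomb complex genes had a downstream peak in 14 of 26 cases (53.8%, 35.5 to 71.2%). Of the 26, 25 were CpG-rich, 13 of these with a downstream peak, against 48.3% of all CpG-rich genes. Pcgf3 had an enrichment of 14.6, Suz12, a core subunit of PRC2, 10.6 and Pcgf2 9.16. Among enzymes that write, read or remove DNA methylation, 4 of 13 had a downstream peak (30.8%, 12.7 to 57.6%), close to the 27.7% of all protein-coding genes. Enrichment was 11.9 for the de novo methyltransferase Dnmt3b, 9.63 for the maintenance methyltransferase Dnmt1 and 8.31 for its partner Uhrf1. Treatment reads per kb were 23.6, 39.3 and 18.7 in the same order, higher than in 26.4%, 91.2% and 6.53% of downstream peaks.

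Lists of the pluripotent and the differentiating state had intervals that include the background, and their counts depended on the limit of 500 bp. With a limit of 1000 bp, where the background was 31.8%, a downstream peak was present in 10 of 20 naive pluripotency factors (50%, 29.9 to 70.1%) and 6 of 13 transition factors (46.2%, 23.2 to 70.9%). It was present in 19 of 33 epithelial genes (57.6%, 40.8 to 72.8%) and 17 of 30 mesendoderm genes (56.7%, 39.2 to 72.6%), so that in these 2 lists the interval no longer included the background. At 1000 bp the CpG-rich genes were not counted apart. With the limit of 500 bp, a downstream peak was present in 10 of 23 CpG-rich epithelial genes and 7 of 16 CpG-rich mesendoderm genes. It was present in 4 of 11 CpG-rich naive pluripotency factors and 3 of 11 CpG-rich transition factors, against 48.3% of all CpG-rich genes. Naive pluripotency factors had a downstream peak in 5 of 20 genes (25%, 11.2 to 46.9%). Median enrichment of the downstream peaks was 8.52 in the naive, 8.32 in the mesendoderm and 5.80 in the epithelial list, against 6.66 over all downstream peaks. Tfcp2l1 had an enrichment of 12 at 105 bp and Stat3, the effector of LIF, 8.52 at 261 bp. Lin28a, which the naive list includes though it is an RNA-binding protein not particular to the naive state, had 11.3 at 416 bp. Mesendoderm and cardiovascular precursor genes had one in 11 of 30 (36.7%, 21.9 to 54.5%), with 9.84 for Dll1, a Notch ligand, 9.45 for the T-box factor Tbx20 and 9.29 for the TGF-β family ligand Nodal. Epithelial genes that Zeb1 is known to repress had one in 11 of 33 (33.3%, 19.8 to 50.4%), led by Ovol1 with 8.86 and Ovol2 with 7.97. The transcription factors of epithelial-mesenchymal transition had one in 3 of 13 (23.1%, 8.18 to 50.3%), which were Snai1 with 12.4, Twist2 with 7.01 and Gsc with 5.36. In these lists many peaks lay elsewhere in the promoter, and 29 of the 33 epithelial genes, 28 of the 30 mesendoderm genes, 10 of the 13 transition factors and 12 of the 20 naive pluripotency factors had a peak within 5 kb of the TSS, against 45.1% of all protein-coding genes. These counts were not split by CpG content. Of all protein-coding genes 50.4% were CpG-rich, and of those with no peak within 5 kb 25%. Hox cluster genes had a downstream peak in 11 of 39 (28.2%), and 31 had one within 5 kb. Hoxd11 had an enrichment of 20.7, higher than 99.8% of downstream peaks, but its 16.3 treatment reads per kb were higher than only 2.18%, over 1.64 input reads per kb.

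Zinc finger genes of the Zfp series were at the background, with 105 of 395 (26.6%, 22.5 to 31.1%), led by Zfp319 with an enrichment of 13.7. The 3 subunits of RNA polymerase II with a downstream peak were Polr2c with 7.40, Polr2m with 6.33 and Polr2a with 6.13. Replication-dependent histone genes had one in 14 of 62 (22.6%, 14.0 to 34.4%) although 60 of the 62 were CpG-rich. The highest were Hist1h4b with 12.7, Hist1h4i with 11.3 and Hist1h4k with 11, all centred in coding sequence.

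Genes of specialised tissues had few downstream peaks, and few of these genes were CpG-rich. CpG-rich genes numbered 3 of 1103 olfactory receptors, 1 of 350 vomeronasal receptors and 0 of 70 defensins. Of all genes that were not CpG-rich, 6.71% (6.24 to 7.20%) had a downstream peak. Olfactory receptors had a downstream peak in 2 of 1103 genes (0.181%, 0.0497 to 0.659%), Olfr1344 with an enrichment of 6.25 and Olfr322 with 2.95. With an enrichment of at least 5 the count was 1 olfactory receptor, Olfr1344. With distances moved by 47.2 bp it was also 1, which need not be the same gene. None of 350 vomeronasal receptors had one, which allows a share of up to 0.857% by 3 counts in 350 and of 1.09% by the Wilson limit. None of 70 defensins had one, which allows a share of up to 4.29% and 5.20% in the same way. Keratin-associated proteins, of the hair shaft, had one in 6 of 55 (10.9%, 5.10 to 21.8%), and none of the 55 was CpG-rich. This interval includes the 6.71% of all genes that were not CpG-rich. The highest were Krtap1-3 with 15.1, Krtap4-9 with 10.4 and Krtap1-5 with 7.90, each centred in coding sequence with CpG values of 0.166, 0.169 and 0.245.

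**Figure D4:**
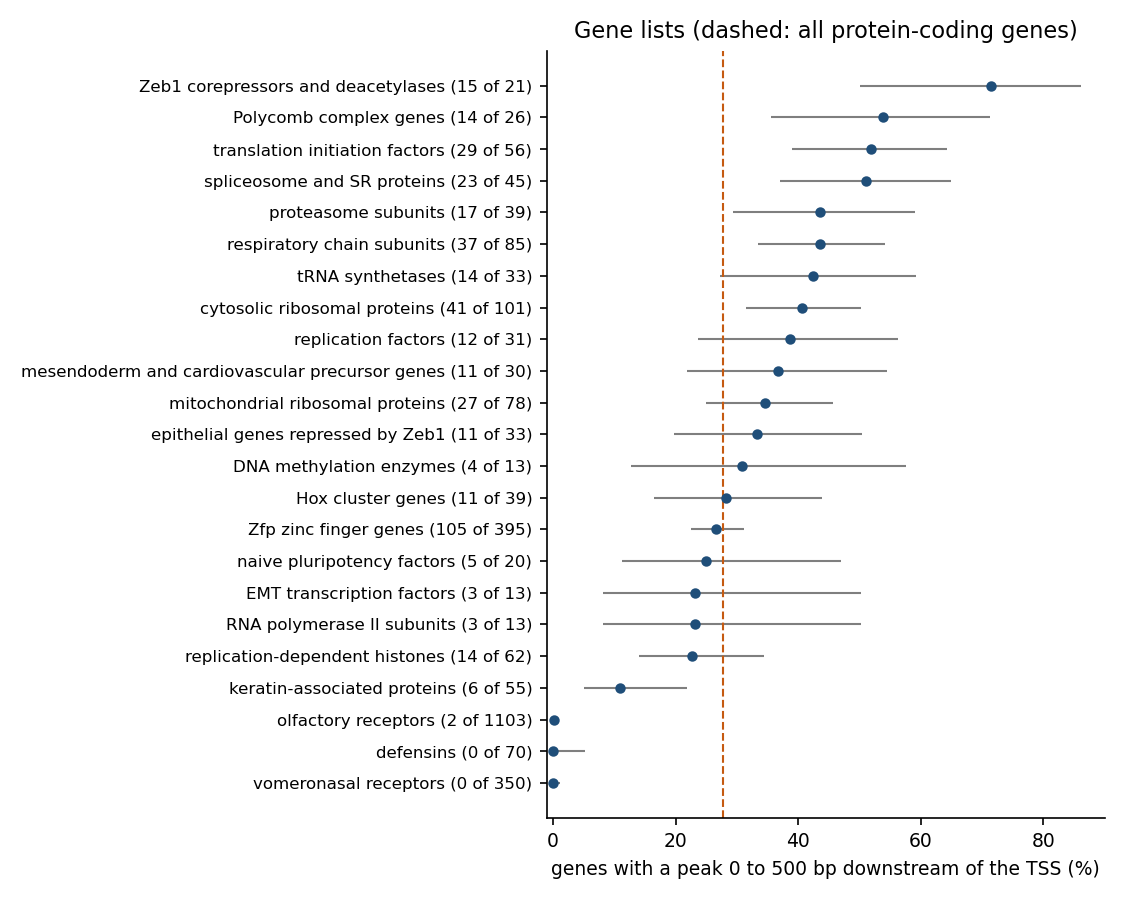
Percentage of the genes of each list with a downstream peak (x axis), with 95% Wilson intervals as bars and the number of genes beside each name, in order of the percentage. The dashed line is the 27.7% of all protein-coding genes, with corepressor genes at 71.4% and vomeronasal receptors and defensins at 0.

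Of 12 genes looked up by name, taken from those the study names, Mesp2, Dll1, Hdac1 and Hdac2 had a downstream peak. Mesp2, a transcription factor of the early mesoderm, had 49 treatment reads and 24.9 input reads at chr7:79810301-79812000 of mm10, centred in the coding part of exon 1. Its enrichment of 4.19 was higher than that of 7.78% of downstream peaks, and its 28.8 treatment reads per kb than that of 55.1%. Its 14.6 input reads per kb lay above the median of 8.86. Dll1 had 129 treatment reads and 28.6 input reads at chr17:15373651-15377300, centred in the 5′ UTR in exon 1, and 87.1% of downstream peaks had a lower enrichment than its 9.84. The peak was 3650 bp long and held 6 matches of the motif, among them 1 at the 5′ splice site of intron 1, 638 bp from the TSS. In Mesp2 the 5′ splice site of intron 1 also carried the letters, 1034 bp from the TSS. Wnt3, Wnt7b and Tbx4 had no downstream peak and 1 upstream peak each, centred at -375, -129 and -388 bp. Wnt7b also had a peak 920 bp after the TSS in intron 1, with 96.7 treatment reads against 77.2 in the upstream peak. In all, 3 peaks were assigned to Wnt3, 7 to Wnt7b and 4 to Tbx4. Zeb2 had a peak 777 bp after the TSS, and the Nos2 peak lay 4366 bp after it. The peaks assigned to Zeb1 itself and to Nos1 were distal, and no peak was assigned to Nos3. The paper, by contrast, describes Zeb1 peaks along the locus of eNOS (Nos3), fewer at nNOS (Nos1) and hardly any at iNOS (Nos2). It also reports Zeb1 at the eNOS promoter in GS by gene-specific ChIP, and raised eNOS expression after inactivation of Zeb1. By gene-specific ChIP it further reports Zeb1 in GS at the promoters of Mesp2, Wnt3, Wnt7b, Tbx4 and Dll1. Those experiments are not part of this list. The counts here are of peaks that the list assigns to a gene. Peaks in its locus that the list assigns to a neighbour were not counted.

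The highest enrichments rested on few input reads. Pgrmc1, a haem-binding membrane protein on Chr. X, had the highest value of the downstream peaks at 76.0, with 38.5 treatment reads over 1 input read. Atp2b3, a calcium pump on Chr. X, had 60.5 with 30.5 treatment reads over 1 input read. The others of the 10 highest were Alkbh7 (39.2), Syap1 (38.8), Iqsec2 (35.4), Kis2 (31.0), the keratin gene Krt72 (29.9), the ion channel subunit Lrrc8c (24.8), the ectodysplasin gene Eda (22.9) and Csnk2b (22.8), a subunit of casein kinase II. Their median was 2.14 input reads, against 16.4 over all downstream peaks, while their median of 39.5 treatment reads lay below the 50.6 over all. Of the 10, 6 were on Chr. X, as were 12 of the 50 highest and 14 of the 100 highest, against 61 of all 6019 downstream peaks (1.01%).

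Chr. X stood apart in reads as well as in number. Of its 902 protein-coding genes 57 had a downstream peak, or 6.32% (4.91 to 8.10%), against 28.7% (28.1 to 29.4%) on the autosomes. The input reads per kb in downstream peaks had a median of 3.78 on Chr. X and 8.69 on the autosomes other than Chr. 6 and 8, a ratio of 0.435. Treatment reads per kb were lower by a smaller factor, 20.6 against 27.6 and a ratio of 0.747, and the median enrichment was 10.9 against 6.73. No peak of the list had fewer than 20 treatment reads, so regions of Chr. X with fewer reads could not be counted.

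Chr. 6 and 8 differed in the other direction. Input reads per kb were 1.39 times those of the other autosomes on Chr. 6 and 1.26 times on Chr. 8, treatment reads per kb 1.16 and 1.10 times, and enrichment 0.831 and 0.939 times. On the other 17 autosomes the ratio of input reads ranged from 0.959 to 1.09 and that of treatment reads from 0.980 to 1.03, while that of enrichment ranged from 0.935 to 1.04 and so included the value of Chr. 8. Of the protein-coding genes 34.0% had a downstream peak on Chr. 8 and 26.8% on Chr. 6, within the range of 19.5% (Chr. 7) to 34.2% (Chr. 12) over the autosomes. The number of copies of each chromosome in these cells was not measured, and its part in these values was not tested. Without Chr. 6, 8 and X, chosen after seeing the data, the median enrichment of downstream peaks was 6.73.

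**Figure D5:**
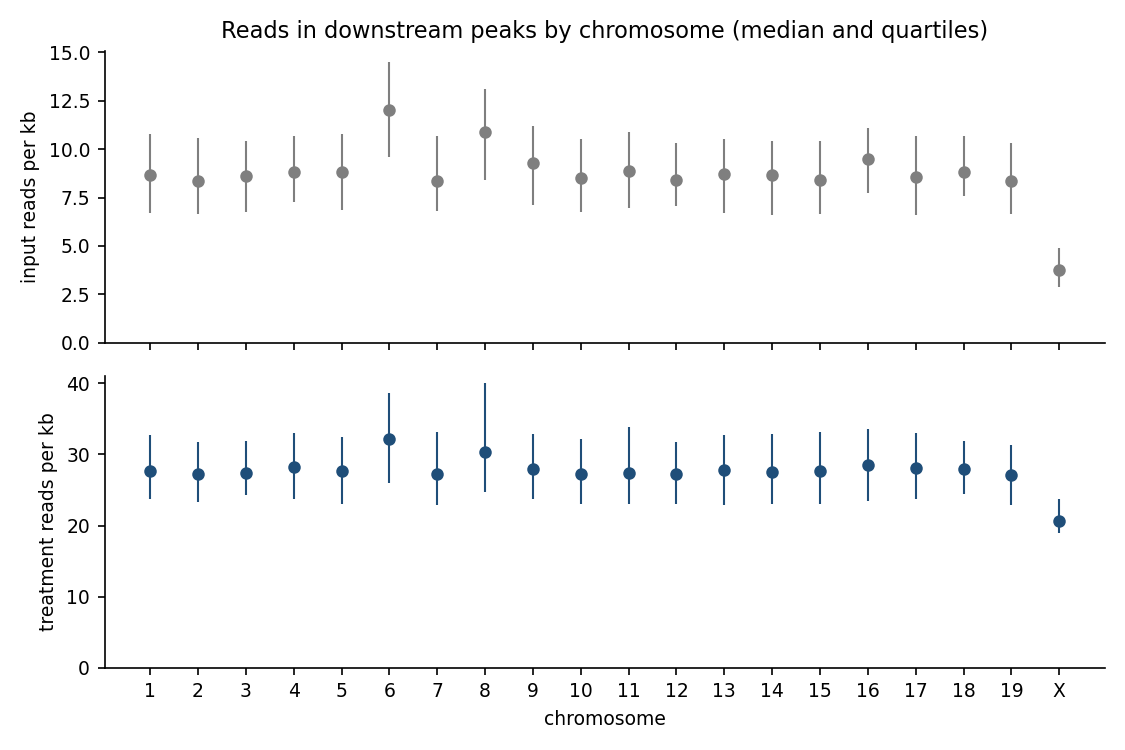
Input reads per kb (top) and treatment reads per kb (bottom) of downstream peaks on each chromosome (x axis), as medians (points) with quartiles (bars). Medians of input reads are 12 on Chr. 6, 10.9 on Chr. 8 and 3.78 on Chr. X, and between 8.33 and 9.47 on the other autosomes.

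The downstream peaks with the most treatment reads were long ones. Hic1, a transcriptional repressor gene on Chr. 11, had 285 treatment reads in a peak of 6800 bp, or 42.0 per kb, centred in intron 1. C130021I20Rik followed with 230 treatment reads and Grin1os, a transcript opposite to Grin1, with 222. Gnas, an imprinted gene of a G protein subunit, had 216 in 6750 bp, or 32.0 per kb, which 70.7% of downstream peaks did not reach. Gse1 had 209, the chromatin reader Ing2 199, the forkhead factor Foxo3 196, the homeobox genes Tlx2 and Pou4f2 193 each, and the adenylate cyclase Adcy5 188. Per kb, Grin1os was the highest of the 10 with 58.5 treatment reads, more than 99.8% of downstream peaks, and its enrichment of 17.8 was the highest of the 10 as well. The enrichments of the other 9 lay between 7.91 (Gnas) and 11.4 (Adcy5 and Ing2). Each of the 10 peaks held at least 2 matches of the Zeb1 motif, with 9 in Gse1. Ing2, Pou4f2 and Gse1 were on Chr. 8 and Tlx2 on Chr. 6, the chromosomes with more input reads.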

How the data were processed

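The authors trimmed the reads of the Zeb1 ChIP and the input, drew an equal number at random from each library, aligned them to mm10, removed duplicates, called peaks in each ChIP library against the input, unified the peaks that 2 or more of the 3 libraries shared, counted reads again and averaged the values. The submitters' processing notes name FastQC 0.11.2, STAR 2.4.2a, Picard 1.136 and HOMER 4.7. The deposited read columns are a signal, means over libraries and so not whole reads. The deposited enrichment is a ratio of ChIP to input, corrected by the authors for sequencing depth. It is not the plain ratio of the deposited reads, as in Pgrmc1, with 76.0 for 38.5 treatment reads over 1 input read. As a deposited p-value each of the 17435 peaks has 0, which was left aside. The legend of the list gives distances the opposite sign, and the reference showed that positive values lie downstream of the TSS. The averages hide the spread between libraries, and the way in which overlapping peaks were unified sets their length and centre.

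Peaks were split by the deposited distance at 0, 500 and 5000 bp. GRCm38.p6 and its 45756 curated transcripts of RefSeq gave sequence, exons and splice sites. Each protein-coding gene was given the TSS that most of its curated transcripts share. Shares have Wilson intervals, zero counts also a bound of 3 counts over the genes of the list, differences of shares Newcombe intervals, and medians order-statistic intervals, all at 95%. The members and the gene lists were chosen with earlier results of these data known. The histone list was widened after its first symbols matched no gene of the reference. The rule for named genes takes the genes of the 10 most enriched downstream peaks, those of the 10 highest in treatment reads, the genes of up to 3 downstream peaks with the highest enrichment in each list, and 12 of the genes the study names. A gene that met this rule is not reported here. Alternatives were other distance limits, distances from the reference, a stricter enrichment, merged peaks, other windows and motifs, and single strands. The intervals, the motif search and the assignment by distance were checked on simulated data. The work was done with pysam 0.24.0, pandas 2.3.3, NumPy 2.4.6, SciPy 1.17.1 and matplotlib 3.10.9 in Python 3.11.15.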

Additional observations from a re-analysis of the deposited data

How the results depend on the processing

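The number of downstream peaks was 4051 with a limit of 250 bp, 6942 with a limit of 1000 bp and between 4830 and 6270 with an enrichment of at least 5, merged peaks, reference distances or distances moved by 47.2 bp. The share downstream among peaks close to the TSS was above 50% in every setting in which it was computed. It was 72.1% with a limit of 250 bp, 76.9% without peaks next to an opposite TSS, 69.5% on the plus and 81.9% on the minus strand. The median enrichment and its difference from upstream peaks moved by less than their intervals in every setting run. The difference in treatment reads turned from -3.43 per peak to 0.75 per kb and to 1.29 reads as the median of differences within quartile bins of peak length. The difference in CpG content was 0.0316 in 500 bp at the centre. The difference in the share of peaks with the motif was -3.43 percentage points over the whole peak, -0.0457 in 1000 bp and 5.62 in 200 bp at the centre, and -0.266 in 200 bp without matches at 5′ splice sites, a setting chosen after seeing the data. The share of protein-coding genes with a downstream peak was 22.2% with an enrichment of at least 5 and 31.8% with a limit of 1000 bp. It was 22.8% over all genes of the reference and, added after seeing the data, 28.6% without Chr. X. The number of lists above the background was 16, 15 and 14 with the stricter enrichment, the limit of 1000 bp and the moved distances. With the limit of 1000 bp, naive pluripotency factors had a downstream peak in 10 genes, epithelial genes in 19, mesendoderm genes in 17 and transition factors in 6. With the stricter enrichment 9 tRNA synthetases and 1 olfactory receptor had one, and with moved distances 1 olfactory receptor. Leaving out each library was not run, since it needs values per library. No paired analysis was possible because the list holds no value per library.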
